A study of Caenorhabditis elegans with 6 samples.

Results

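The histone genes of Caenorhabditis elegans were followed in whole embryos of the mutant strain yap-1(ys38) and of the wild-type strain N2. They were taken as the probe sets whose platform annotation names only his- or hil- genes or htz-1, which gave 64 of the 22548 probe sets that are not controls. These 64 probe sets cover all 81 histone genes of the RefSeq table, of 18217 gene symbols on the array. Of them, 41 name 1 gene and 23 are shared by several near-identical genes, up to 14 on 1 probe set, so values of shared probe sets cannot be assigned to a gene. A further probe set that mixes histone symbols with other gene names was left out by the rule.

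The yap-1(ys38) group held 3 arrays and the wild-type group 3, with 1 biological replicate on each, and all embryos were released by bleaching gravid adults. yap-1 encodes the worm YAP protein, the transcriptional coactivator that the Hippo kinases restrain, and the labels do not say what the ys38 allele changes, give no embryo stage and name no other allele or treatment. The strains were compared to find genes through which the Hippo pathway keeps cells polarised. The study excluded wild type replicate 2 as unlike the others, so the strain comparison rests on yap-1(ys38) replicates 1, 2 and 3 against wild type replicates 1 and 3, and the values of wild type replicate 2 are given apart.

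Histones package DNA. Core histones H2A, H2B, H3 and H4 form the nucleosome, and most of their genes are switched on in S phase, when new DNA has to be wrapped. In animals the mRNAs of these replication-dependent genes end in a stem-loop bound by a dedicated protein (CDL-1 in the worm) rather than in a long poly(A) tail. Linker histones of the H1 type bind between nucleosomes, and the variants H3.3 and H2A.Z can be deposited outside S phase.

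Every value below is a MAS5 signal, the summary intensity of a probe set on a linear scale after global scaling of each array, which hides any change in the total amount of mRNA, and log2 fold changes are yap-1(ys38) minus wild type. Median signals were 118 to 133 in the 3 yap-1(ys38) arrays, 123 and 122 in wild type replicates 1 and 3 and 86.6 in wild type replicate 2. The early-embryo markers used to check the tissue (10 genes such as pos-1 and spn-4) summed to 23546 to 31827 in yap-1(ys38) arrays and 25665 to 38320 in wild-type arrays, and the 6 muscle genes of differentiating embryos to 16251 to 20860 and 7228 to 24120. The 38320 and the 7228 are from wild type replicate 2. Without that array, 9 of the 10 early-embryo markers had a log2 fold change above 0 and 1 below (median 0.17), where 51.2% of all probe sets lay above 0. Of the 6 muscle genes 2 lay above 0 and 4 below (median -0.16). In both lists 0 were called at a limma adjusted p under 0.05, where 0% of all probe sets were. Adult yolk genes ranged widely in both strains, from 284 to 4500 summed over the 5 vit- genes measured in yap-1(ys38) arrays and from 131 to 12316 in wild-type arrays, while the 5 sperm genes measured stayed at sums of 48.9 to 128 in every array. In whole embryos fewer cells of a type and less RNA per cell cannot be told apart. The study calls the replicates biological without saying whether they came from separate cultures, and precision is limited by how few arrays there are. Probe sets were named by class, brightness and fold change, and those described for their values in single arrays were chosen after these were seen.

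No histone probe set passed the limma test between the strains. Of the 64 probe sets, 59 were bright enough to be tested, and 0 were called at a limma adjusted p under 0.05 (Benjamini-Hochberg over all 13529 probe sets tested). None had an unadjusted p under 0.05 either. Over all probe sets 0% were called and 1.04% had an unadjusted p under 0.05. The median log2 fold change was 0.05 over the 59 histone probe sets and 0.01 over all probe sets, and 38 of the 59 lay above 0, as did 51.2% of all probe sets. In 9 of the 59 every yap-1(ys38) array exceeded wild type replicates 1 and 3, against a background of 5.9%, and in 1 every yap-1(ys38) array lay below them, against 4.92%. With the replicate number as a block, 0 of the 59 were called, where 0.0887% of all probe sets were, and 1 (hil-1) had an unadjusted p under 0.05 in limma, where 3.46% had. The 9 include several probe sets of the same class, and histone probe sets share sequence, so they are not separate observations.

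**Figure D1:**
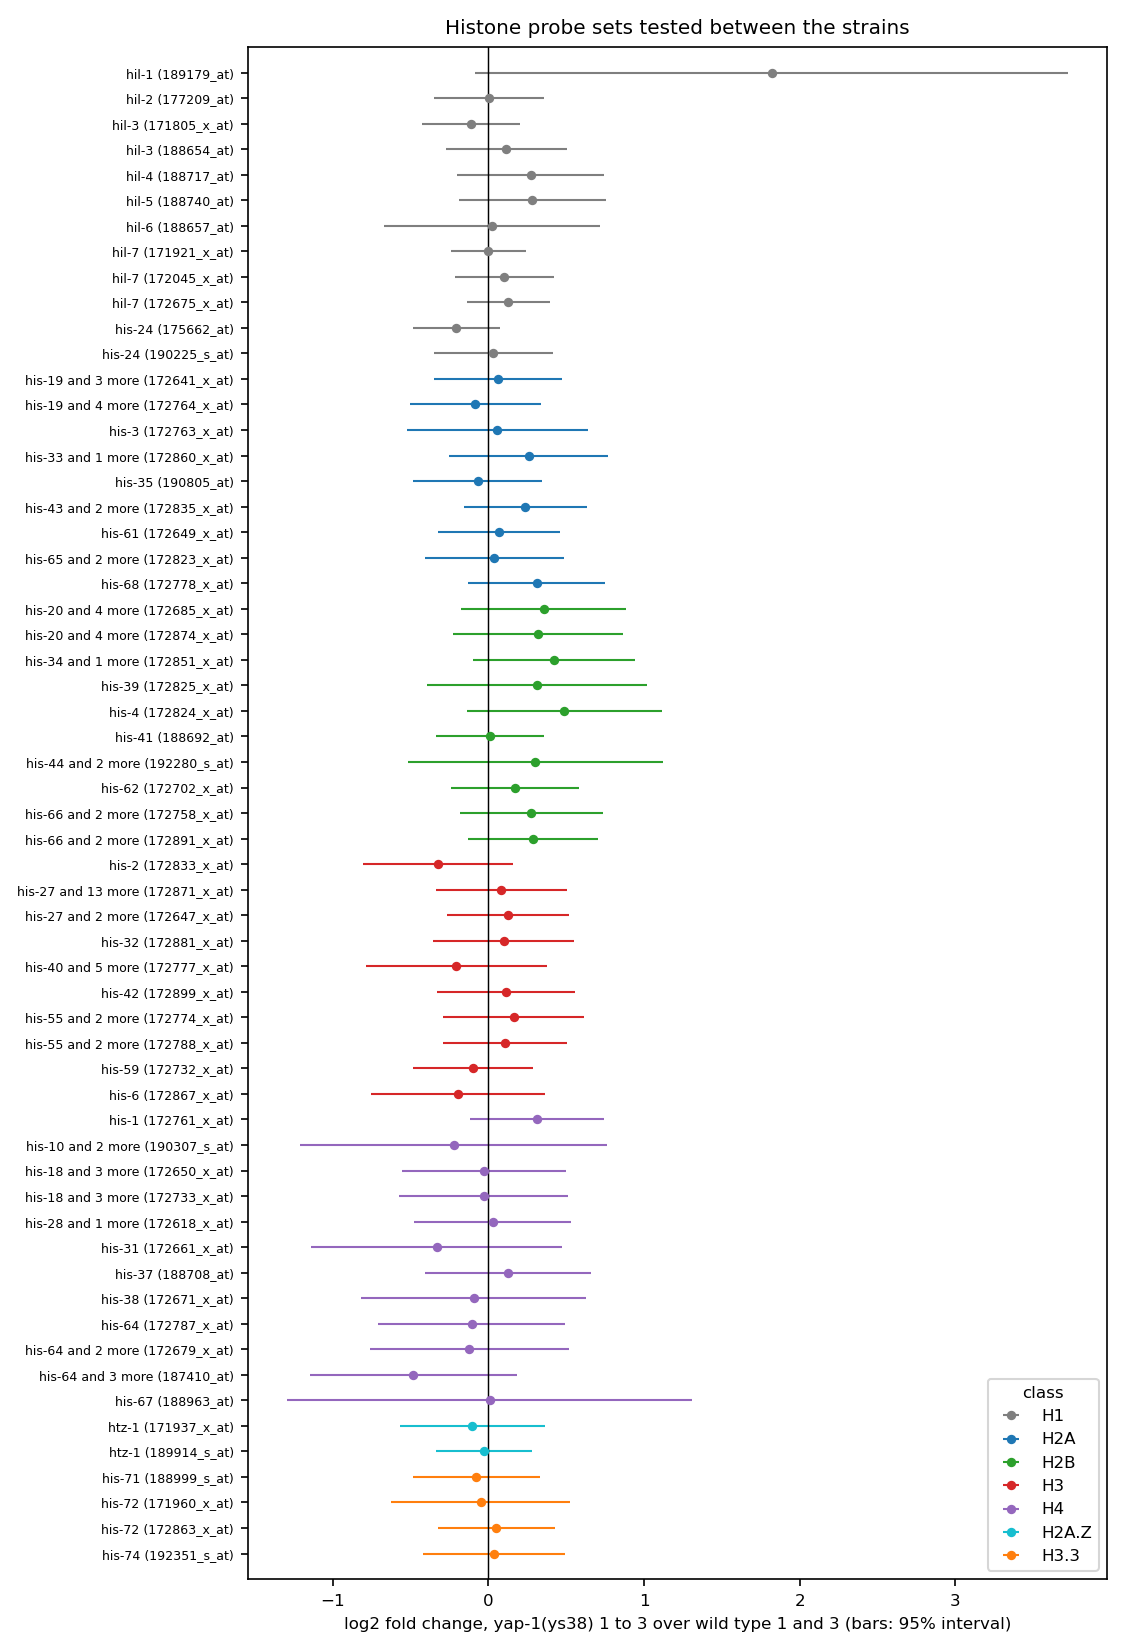
Log2 fold change of each of the 59 histone probe sets tested, yap-1(ys38) replicates 1 to 3 over wild type replicates 1 and 3 (points), with 95% intervals (bars), coloured by class and listed with the first gene symbol. Every interval includes 0, and all 10 H2B points lie right of 0.

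Linker histones had log2 fold changes from -0.21 to 0.28 at 11 of their 12 probe sets tested, with none past the test. hil-2 read 14662, 15757 and 13515 in yap-1(ys38) replicates 1, 2 and 3 and 16974 and 12464 in wild type replicates 1 and 3, with 18090 in wild type replicate 2. The yap-1(ys38) values thus lay inside the wild-type range, and the log2 fold change was 0.01 with a 95% interval from -0.35 to 0.36. hil-4 gave a log2 fold change of 0.27 (SE 0.21), hil-5 0.28 (SE 0.21) and hil-6 0.02 (SE 0.31).

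hil-7 was read by 3 probe sets with log2 fold changes of -0.00062, 0.10 and 0.13. hil-3 was read by a pair of probe sets that disagreed in sign (-0.11 and 0.12). So was his-24, which encodes the linker histone H1.1. Its probe set 175662_at read 14373, 13653 and 13209 in yap-1(ys38) and 14767 and 17004 in wild type replicates 1 and 3, with 14873 in wild type replicate 2. Here every yap-1(ys38) array lay below every wild-type array, by 0.21 on the log2 scale (log2 fold change -0.21, SE 0.12, adjusted p = 1 in limma). The other his-24 probe set, 190225_s_at, gave 0.03 (SE 0.17) with overlapping strains.

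The exception among linker histones by size was hil-1, a probe set just above the filter intensity of 53.5. It read 92.5, 94.3 and 90.6 in mutant replicates 1, 2 and 3 and 85.8 and 7.998 in wild type 1 and 3, with 55.8 in wild type replicate 2. The 3 yap-1(ys38) values are nearly equal and wild type replicate 3 alone is far below them. Its log2 signal averaged 6.53 ± 0.03 in yap-1(ys38) (SD, n = 3) and 4.71 ± 2.42 in wild type (SD, n = 2), a log2 fold change of 1.82 with an interval from -0.08 to 3.72 (limma adjusted p = 1). With signals below the filter intensity raised to it, the log2 fold change was 0.45. Leaving out wild type replicate 3 gave 0.11, and leaving out wild type replicate 1 gave 3.53. hil-8 lay below the filter at 40.7, 15.6 and 42.03 in yap-1(ys38) and 5.16 and 12.4 in wild type replicates 1 and 3, with 34.2 in wild type replicate 2, and was not tested.

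Among the core histones, H2B was the class with the highest median log2 fold change, 0.31 over its 10 probe sets, all of which lay above 0 (from 0.01 to 0.49). None passed the test, and in 3 of the 10 every yap-1(ys38) array exceeded wild type replicates 1 and 3, where 5.9% of all probe sets did so. his-4 had the most positive value of the class. It read 469, 448 and 296 in yap-1(ys38) replicates 1, 2 and 3 and 275 and 290.1 in wild type replicates 1 and 3, with 650.5 in wild type replicate 2. The yap-1(ys38) arrays lay above both wild-type arrays, replicate 3 only just, for a log2 fold change of 0.49 (SE 0.28, interval -0.14 to 1.11). his-34 and his-29, which share a probe set, gave 0.42 (SE 0.23), and his-62 gave 0.17 (SE 0.18). In the methods' t-test his-62 was the only histone probe set with an unadjusted p under 0.05, where 1.49% of all probe sets had one, and it did not pass after Benjamini-Hochberg adjustment. his-41, the brightest of the class, gave 0.01 (SE 0.15).

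With wild type replicate 2 set aside, most H2B probe sets were lowest within each strain in the array numbered 3. The class median, as a deviation from each probe set's mean over the 6 arrays on the log2 scale, was 0.17, 0.20 and -0.27 in yap-1(ys38) replicates 1, 2 and 3 and -0.15 and -0.44 in wild type replicates 1 and 3. By these medians the arrays numbered 3 were the lowest of each strain, and 6 of the 10 probe sets had replicate 3 lowest both among the yap-1(ys38) arrays and of the pair of wild-type arrays. his-62 and both probe sets of his-66, his-58 and his-48 were not lowest in replicate 3 of either strain, and his-4 was so only in yap-1(ys38). The shared probe set of his-44, his-11 and his-15 is one of the 6, with 331, 341 and 188 in yap-1(ys38) and 293 and 172 in wild type replicates 1 and 3, and so is his-39, a gene model shorter than the others of its class, with 749, 886 and 447 against 617 and 467. Between same-numbered arrays the H2B median difference was 0.25 for number 1 and 0.13 for number 3, and -0.26 for number 2. Leaving out wild type replicate 3 put the H2B median log2 fold change at 0.17, with 8 of 10 above 0, and leaving out yap-1(ys38) replicate 3 put it at 0.51.

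H2A and H3 showed smaller median differences. H2A had a median log2 fold change of 0.06 over 9 probe sets, 7 above 0 and 2 below. In 3 of the 9 every yap-1(ys38) array exceeded wild type replicates 1 and 3, where 5.9% of all probe sets did so. The brightest tested was that of his-19, his-53, his-21 and his-51 (0.06, SE 0.18). his-68 had the most positive value of the class, with 1635, 1291 and 1332 in yap-1(ys38) and 1062 and 1220 in wild type replicates 1 and 3, and 1674 in wild type replicate 2. All yap-1(ys38) arrays exceeded the wild-type arrays compared, and the log2 fold change was 0.31 (SE 0.19, adjusted p = 1 in limma). The probe set of his-19, his-7, his-53, his-21 and his-51 had the most negative value, -0.08 (SE 0.19).

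H3 had a median log2 fold change of 0.09 over 10 probe sets, 6 above 0 and 4 below, and in none of them were the strains free of overlap. Over all probe sets, every yap-1(ys38) array lay above wild type replicates 1 and 3 in 5.9% and below them in 4.92%. The brightest H3 probe set, shared by his-27, his-17 and his-49, gave 0.13 (SE 0.17), and the most positive, one of the pair shared by his-55, his-63 and his-45, gave 0.16 (SE 0.20). his-2 was the most negative, with 2009, 1523 and 2359 in yap-1(ys38) and 2307 and 2533 in wild type replicates 1 and 3, and 2460 in wild type replicate 2. Its yap-1(ys38) replicate 3 lay between the wild-type arrays, and the log2 fold change was -0.32 (SE 0.21). Without yap-1(ys38) replicate 1 the H3 median was -0.03. Leaving out wild type replicate 1 made it -0.06, and that of H2A was -0.04.

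By class medians, H4 was the core class whose yap-1(ys38) arrays differed most from each other. Its median log2 fold change was -0.06 over 12 probe sets, 4 above 0 and 8 below, and turned to 0.13 without yap-1(ys38) replicate 2 and to 0.08 without wild type replicate 3. his-31 read 656, 266 and 392 in yap-1(ys38) replicates 1, 2 and 3 and 488 and 540.1 in wild type replicates 1 and 3, with 1146 in wild type replicate 2. Replicate 2 of yap-1(ys38) was the lowest of all 6 arrays there and replicate 2 of wild type the highest. his-64 read 751, 478 and 800 in yap-1(ys38) and 667 and 755 in wild type replicates 1 and 3, with 1939 in wild type replicate 2, again with the replicates numbered 2 at both ends. The most negative value of the class belonged to the probe set of his-64, his-56, his-46 and his-60 (-0.48, SE 0.29) and the most positive to his-1, which read 1176, 1249 and 1149 in yap-1(ys38) and 1049 and 874 in wild type replicates 1 and 3, with 1711 in wild type replicate 2. In his-1 the yap-1(ys38) arrays exceeded both wild-type arrays compared, by 0.31 on the log2 scale (SE 0.19). his-37, the brightest H4 probe set, gave 0.13 (SE 0.23).

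yap-1(ys38) replicate 2 was the lowest of the 6 arrays at 8 of the 12 H4 probe sets, against 8.21% of all probe sets tested, at 2 of 10 H3 probe sets and at none of the H2A and H2B probe sets. The median deviation of H4 was 0.04, -0.57 and -0.04 in yap-1(ys38) replicates 1, 2 and 3. In H2B it was 0.20 in that same replicate 2. There 10 of 12 H4 probe sets lay below their own means over the 6 arrays, his-1 and his-37 being the exceptions, and 9 of 10 H2B probe sets lay above theirs. These means include wild type replicate 2, whose high H4 values (median deviation 0.87) lower the deviations of the other arrays. In wild type replicate 1 the H4 median was -0.27. For the counts above and below the means, no share over all probe sets was taken. The count of 8 stayed at 8 after quantile normalization and after centring each array on its median. This count was chosen after the values were seen, many H4 probe sets share genes, and it describes 1 array, so no test was made. The 3-prime over 5-prime signal of 4 control transcripts, a sign of RNA quality averaged as log2, was 3.00 in yap-1(ys38) replicate 2 and 2.86 and 3.07 in replicates 1 and 3, and its part in the H4 values was not tested.

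**Figure D2:**
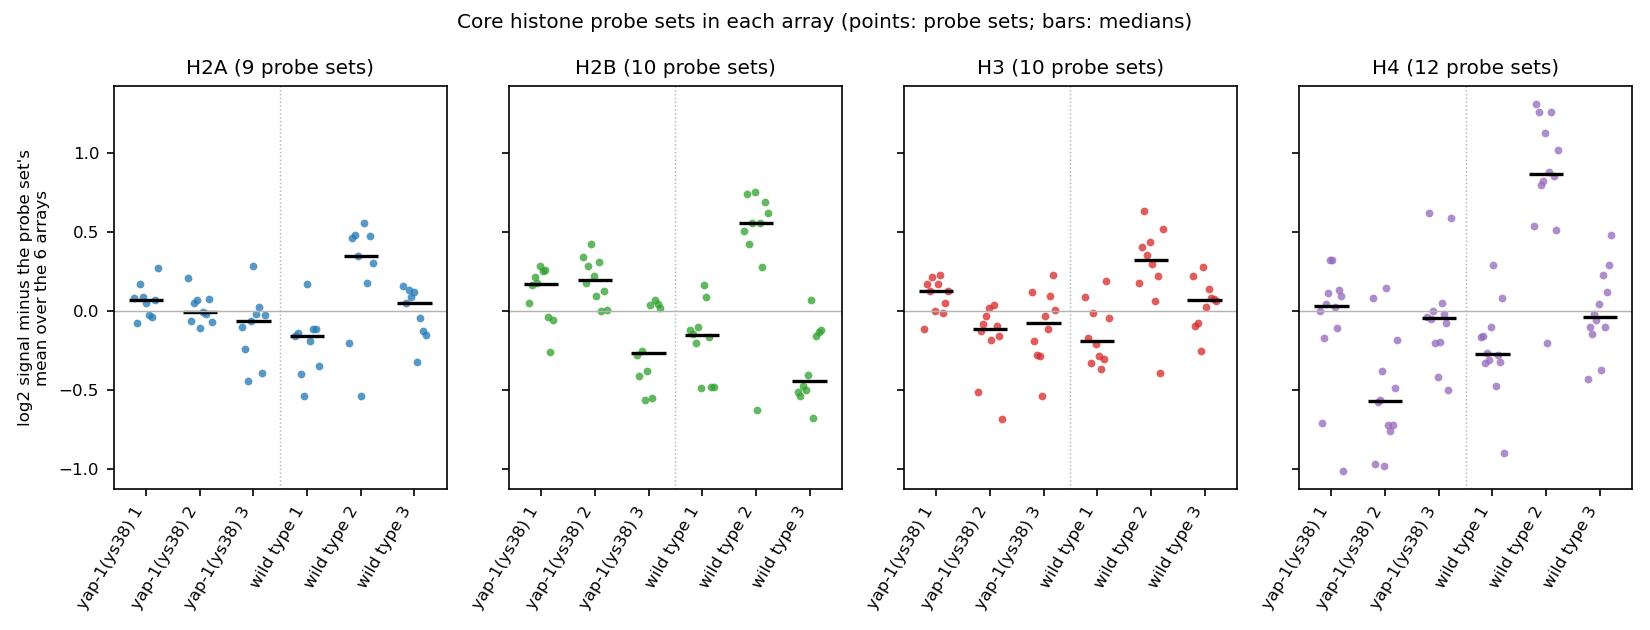
Log2 signal of each core histone probe set as its deviation from its own mean over the 6 arrays (points), by class and array, with class medians (bars). Wild type replicate 2 has the highest median in all 4 classes, 0.87 in H4, and yap-1(ys38) replicate 2 has the lowest H4 median, -0.57.

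None of the 6 variant probe sets tested, 4 of H3.3 and 2 of H2A.Z, passed the test. his-72, an H3.3 gene, read 19854, 18585 and 14591 in yap-1(ys38) and 19031 and 15034 in wild type replicates 1 and 3 at its probe set 172863_x_at, with 20403 in wild type replicate 2. The strains overlapped and the log2 fold change was 0.05 (SE 0.17). At the other his-72 probe set, 171960_x_at, the wild-type arrays compared read 8270 and 4130 and enclosed the 5730, 5791 and 5430 of yap-1(ys38), and the log2 fold change of -0.05 became 0.45 when wild type replicate 1 was left out and -0.55 when wild type replicate 3 was.

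his-71, another H3.3 gene, gave -0.08 (SE 0.18), and his-74 gave 0.04 (SE 0.20). htz-1, which encodes H2A.Z, read 14142, 16250.0 and 13379 in yap-1(ys38) and 15948 and 13757 in wild type replicates 1 and 3, with 17400 in wild type replicate 2. Its log2 fold change was -0.03 (SE 0.14) at this probe set and -0.10 (SE 0.21) at the other, with the strains overlapping at both.

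The other H3.3 genes, his-69 and his-70, lay far below the filter. They read 1.24 to 4.46 and 2.60 to 27.1 in yap-1(ys38) arrays, and 1.22 to 42.2 and 2.35 to 6.45 in wild-type arrays, wild type replicate 2 included. his-73, a short histone gene model that was given no class, read 40.4 to 55.2 in yap-1(ys38) and 24.8 to 59.6 in wild type, and the probe set of his-40 and his-17 read 35.7 to 55.7 and 35.6 to 50.7. These 4 probe sets and hil-8 were not tested, and detection calls were not used here, so whether they carry signal is not known.

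Genes that handle histones or accompany DNA synthesis did not pass the test between the strains either. All 24 measured genes of the list of histone assembly factors were tested, 0 were called and 0 had an unadjusted p under 0.05 in limma, with 12 above 0 and 12 below (median log2 fold change -0.01). Over all probe sets 0% were called, 1.04% had an unadjusted p under 0.05 and 51.2% lay above 0. With so low a share, none is also the likely count in a list of this size. knl-2, needed for loading the centromeric H3, read 1002, 950 and 1108 in yap-1(ys38) and 1310 and 1293 in wild type replicates 1 and 3, and 2199 in wild type replicate 2. All yap-1(ys38) arrays were the lower ones, by a log2 fold change of -0.35 (SE 0.18, adjusted p = 1 in limma). chaf-1, of the CAF-1 chaperone that follows replication forks, gave 0.30 (SE 0.27), spt-16, of the FACT complex, -0.16 (SE 0.15), and cdl-1, the stem-loop binding protein, 0.01 (SE 0.18).

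Of the S phase list 18 of 20 genes were tested, again with 0 called and 0 at an unadjusted p under 0.05 in limma. Over all probe sets these shares were 0% and 1.04%. In the list 7 lay above 0 and 11 below (median -0.02). rnr-1, the large subunit of ribonucleotide reductase, gave 0.18 (SE 0.16), and the replicative helicase genes mcm-6 and mcm-2 gave -0.15 (SE 0.22) and -0.13 (SE 0.19).

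Wild type replicate 2, the array that the study set aside, read high for the core histones. Of the 41 core histone probe sets tested, 34 were higher in it than in each of the other 5 arrays, against 32.4% of all probe sets. The same number, 34, exceeded both other wild-type arrays, where 40.1% of all probe sets did, and 4 lay below both, where 40.3% did. Relative to the mean of wild type replicates 1 and 3, its median log2 difference was 1.01 for H4, a 2.01-fold level, 0.86 for H2B (1.81-fold), 0.56 for H2A (1.47-fold) and 0.42 for H3 (1.34-fold). The linker histones stood at 0.17, and all probe sets tested at 0.01. H4 led at the level of single probe sets too, with 7 of 12 at least 2-fold above that mean, where 5.64% of all probe sets were, against 2 of 10 in H2B and 0 in H2A and H3. Only 1 array stands on one side of this comparison, so it has no replicate check and no test.

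The H4 probe set of his-18, his-28, his-50 and his-5 (172650_x_at) showed the largest difference. It read 705, 533 and 765 in yap-1(ys38) replicates 1, 2 and 3, and in wild type 1906 in replicate 2 against 632.5 and 717 in replicates 1 and 3. Wild type replicate 2 thus stood 2.83-fold above the geometric mean of the other wild-type arrays, and the other 5 arrays overlapped. The probe set of his-10, his-26 and his-14 read 232, 194 and 584 in yap-1(ys38), and in wild type 941 in replicate 2 against 340 and 353 (2.71-fold). For H3 the probe set of his-27, his-17 and his-49 went furthest, at 7643 against 3911 and 4658 (1.79-fold), and for H2A that of his-43, his-12 and his-16, at 2024 against 1205 and 1102 (1.76-fold).

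**Figure D3:**
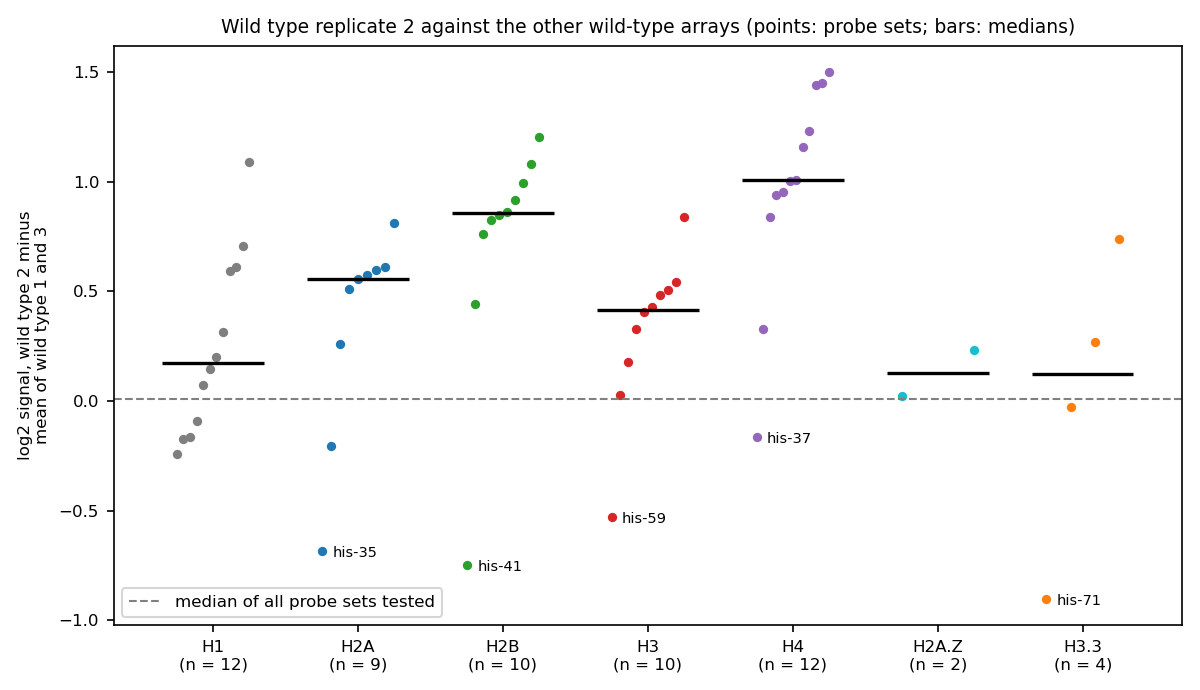
Difference in log2 signal between wild type replicate 2 and the mean of wild type replicates 1 and 3 for each histone probe set tested (points), by class, with class medians (bars) and the median of all probe sets tested (dashed). Most core probe sets lie above the dashed line, whereas his-35, his-41, his-59, his-37 and his-71 are among those below it.

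Not every core gene followed its class. his-35, an H2A gene, read 1855, 1662 and 2183 in yap-1(ys38), and 1234 in wild type replicate 2 against 2015 and 1945 in its replicates 1 and 3, so wild type replicate 2 was the lowest of all arrays (log2 difference -0.68). his-41, an H2B gene, read 3830, 3430.2 and 3299.9 in yap-1(ys38), and 2083 in wild type replicate 2 against 3611 and 3378 (-0.75), again the lowest array. The H2A probe set of his-19, his-53, his-21 and his-51 was also lowest there (-0.21, or 0.30 when arrays were centred on their medians). his-37, an H4 gene, read 3998, 3529 and 2784 in yap-1(ys38), and 2775 in wild type replicate 2, between the 3916 and 2469 of the other wild-type arrays, and was the only H4 probe set not highest in wild type replicate 2.

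In the RefSeq annotation of assembly WBcel235 the genes his-35, his-41 and his-37 lie together, his-35 and his-41 next to each other and his-37 with 1 gene between. They also differ from the rest in gene model: 60 of the 65 core histone genes have the common length of their class, 312 bases for H4, 369 or 372 for H2B, 384 for H2A and 411 for H3 (coding lengths), while his-35, his-41 and his-37 have models of 630.0, 729 and 503 bases. The remaining exceptions to the common lengths are his-57 and his-39, and his-57 has no probe set of its own. his-39 went with most of its class, at 976 in wild type replicate 2 against 617 and 467 in replicates 1 and 3 (log2 difference 0.86). his-59, an H3 gene of the common length, went against its class. It read 3046, 2635 and 3442 in yap-1(ys38), and 2241 in wild type replicate 2 against 3361 and 3109 (-0.53).

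The H3.3 genes split. his-71 read 1220, 1130 and 1271 in yap-1(ys38), and 681 in wild type replicate 2, its lowest array, against 1325 and 1221 (log2 difference -0.90). his-74 read 2099.8, 2099 and 2892 in yap-1(ys38), and 3791 in wild type replicate 2, its highest array, against 2075 and 2494 (0.74). his-72 stood at 0.27 and -0.03 at its probe sets and htz-1 at 0.23 and 0.03. The brighter probe set of each depended on the scaling, with 0.54 for his-72 and 0.50 for htz-1 after quantile normalization and 0.78 and 0.74 when centred. Among linker histones hil-5 (0.71), hil-4 (0.61) and hil-6 (0.59) stood above the other wild-type arrays, while the 3 hil-7 probe sets stood between -0.24 and -0.16. The signs of hil-7, of one his-24 probe set (175662_at), of his-72 171960_x_at and of his-37 turned when arrays were centred on their medians, and all of these but his-37 turned after quantile normalization too. Those of htz-1 171937_x_at and his-2 turned after quantile normalization. his-35, his-41 and his-71 stayed below the mean of the other wild-type arrays under both scalings, and so did his-59, which after centring was 0.02 below that mean and between those arrays.

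Probe sets of neighbouring genes differed by class. All those named in this paragraph carry the suffix _x_at, which marks probe sets that may also bind other transcripts. Their values may thus include other copies and are not levels of 1 gene alone. The genes his-1 (H4), his-2 (H3), his-3 (H2A) and his-4 (H2B) lie side by side, and each has a probe set that names it alone. Relative to wild type replicates 1 and 3, wild type replicate 2 stood 2.30-fold higher at his-4, 1.79-fold at his-1, 1.53-fold at his-3 and 1.02-fold at his-2. his-3 read 1219, 1119.7 and 794 in yap-1(ys38), and 1508 in wild type replicate 2 against 820.3 and 1186. Among the neighbours his-59 to his-62, his-61 (H2A), his-62 (H2B) and his-59 (H3) stood at 1.20-fold, 1.36-fold and 0.69-fold, his-60 (H4) having no probe set of its own. Among the neighbours his-29 to his-34, his-31 (H4) stood at 2.23-fold, his-32 (H3) at 1.40-fold, the probe set of his-33 and his-30 (H2A) at 1.49-fold and that of his-34 and his-29 (H2B) at 1.70-fold. The probe set of the H3 gene had the lowest fold in all 3 groups. This did not hold everywhere. The H3 probe set of his-27, his-17 and his-49 stood at 1.79-fold. Neighbours of these genes, his-19, his-53, his-21 and his-51 (H2A), stood lower, at 0.87-fold, and at 1.42-fold on the probe set that also names his-7. The 3 groups were chosen after the values were seen, and for them the annotation was used only for gene order. In the group his-29 to his-34, 1 other gene lies between his-30 and his-31.

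**Figure D4:**
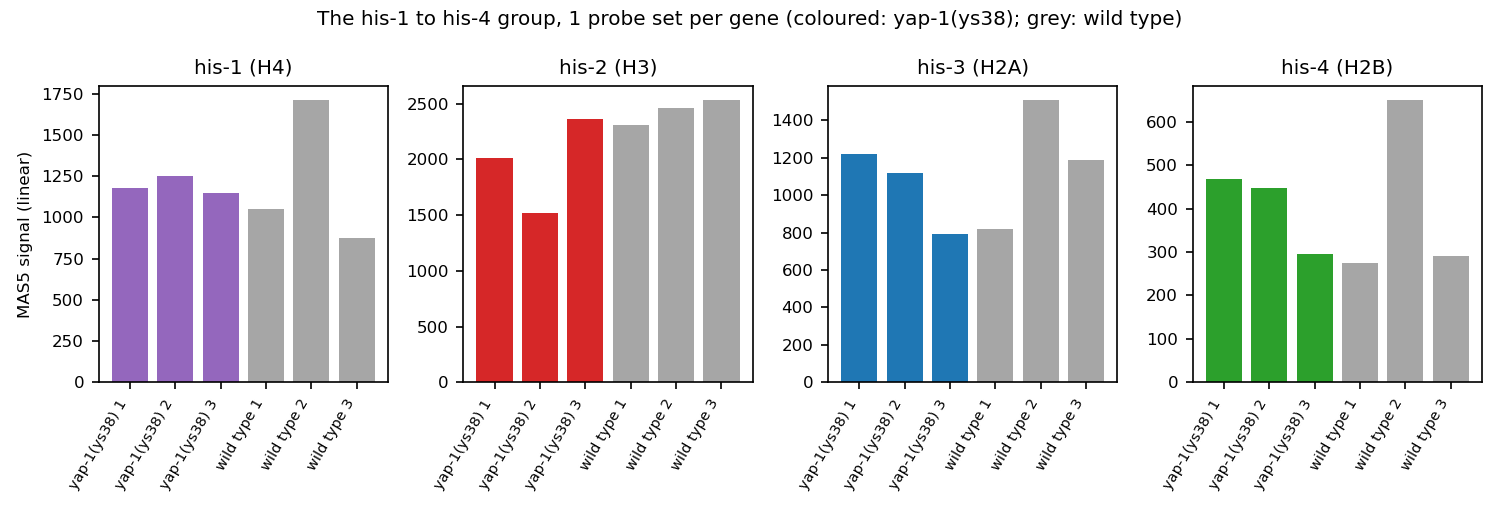
MAS5 signal, on a linear axis from 0, of the adjoining genes his-1, his-2, his-3 and his-4 in each array (coloured bars yap-1(ys38), grey bars wild type), with a scale of its own for each probe set. Wild type replicate 2 has the highest bar at his-1, his-3 and his-4, and not at his-2. All of these probe sets may also bind other transcripts.

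Other gene groups moved with the core histones in this array. In wild type replicate 2, 16 of the 18 S phase genes tested exceeded both other wild-type arrays (median log2 difference 0.57), as did 23 of 24 assembly factors (0.63), among them cdl-1 (0.45), where 40.1% of all probe sets did. All 10 early-embryo markers exceeded both as well (median 0.77, summed signal 38320 against 25665 and 30272), and all 6 muscle genes lay below both, as 40.3% of all probe sets did (median -1.51, summed signal 7228 against 17556 and 24120). The 5 yolk genes measured were higher as well (summed signal 12316 against 7058 and 131), and the sperm genes were dim (summed signal 109 against 48.9 and 106). The 3-prime to 5-prime log2 ratio was 3.64 in wild type replicate 2 against 2.68 and 3.74. The part of these differences in the histone values was not tested.

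Same-numbered arrays of the strains, which deviated together over all probe sets, differed most in the histones for number 2, whose wild-type array the study excluded. The median difference, yap-1(ys38) minus wild type of the same number, was 0.17 for number 1, -0.29 for number 2 and 0.01 for number 3 over the 59 probe sets tested, and -0.01, 0.04 and 0.02 over all probe sets. For H4 it was 0.17, -1.47 and 0.05, with 11 of 12 probe sets lower in yap-1(ys38) replicate 2 than in wild type replicate 2. For number 1, 46 of the 59 were higher in yap-1(ys38), among them 36 of the 41 core probe sets, and for number 3 the split was 30 and 29. The matching shares of all probe sets were not counted. The H4 median depended on whether wild type replicate 2 is included: over all 6 arrays the H4 median log2 fold change was -0.43, against -0.06 without it, and 0 histone probe sets were called either way (0 at an unadjusted p under 0.05 in both limma fits).

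Most core histone probe sets cannot separate close copies. Of the 42 core probe sets, 34 carry the suffix _x_at, with which the manufacturer marks probe sets that may also bind other transcripts, against 7 of the 21 linker and variant probe sets and 5.44% of all probe sets. his-35, his-41 and his-37 are outside the 34. So are other core probe sets that stood above the mean of the other wild-type arrays in wild type replicate 2. These are the ones of his-10, his-26 and his-14 (log2 difference 1.44), of his-67 (1.23), of his-44, his-11 and his-15 (0.85) and of his-64, his-56, his-46 and his-60 (0.33). his-59 (-0.53) and the probe set of his-19, his-53, his-21 and his-51 (-0.21), which stood below it, are among the 34.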

How the data were processed

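Embryo total RNA was measured on Affymetrix arrays for C. elegans, which have 1 colour. How the RNA was labelled is not described here, and its part in the signals of mRNAs without a long poly(A) tail was not tested. Per the labels, the authors deposited MAS5 signal intensities with global scaling, and the 2% trimmed mean was 500.1 on every array. Detection calls were not used here. Signals were taken to log2 without further scaling. Of 22548 probe sets that are not controls, 13529 above the 40th percentile of mean log2 signal were tested with limma 3.58.1 in R 4.3.3 (lmFit, then eBayes with a trend on intensity; p-values two-sided and adjusted by Benjamini-Hochberg over all 13529). The fit was tested on simulated data. The median SE was 0.27.

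Histone classes came from general knowledge of the family and were checked against RefSeq gene lengths (WBcel235), since the tables at hand hold no protein sequences, which the planned rule assumed. Of the probe sets, 20766 have 1 symbol, 887 several and 895 none listed. Members, lists and tests were chosen with earlier results of these data known. The rule named every linker and variant probe set, in each core class the brightest and the most positive and negative, and up to 3 genes with the lowest p of each other list. cdl-1 was added for its role.

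Same-numbered arrays deviated together (correlations 0.364, 0.345 and 0.445 for numbers 1, 2 and 3), which was taken as pairing, and a fit with the replicate block was an alternative. Others were all 6 arrays, quantile normalization, median centring, other filters, no trend, a floor, leaving out each array and the methods' t-test.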

Additional observations from a re-analysis of the deposited data

How the results depend on the processing

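With the replicate block 12 of all probe sets were called, and 0 histones. The pairing changed no histone call, but with the block the median log2 fold change was 0.11 over all histones and 0.13 for H4, whose sign turned. In that fit yap-1(ys38) replicate 2 has no partner, so the fold changes equal those without it. hil-1 alone had an unadjusted p under 0.05 there in limma. Leaving out 1 yap-1(ys38) array at a time called 0 of all probe sets and 0 histones. Without yap-1(ys38) replicate 3, 4 of the 59 histone probe sets had an unadjusted p under 0.05 in limma, where 211 of all 13529 had. Without replicate 1 or replicate 2 of yap-1(ys38), 0 histone probe sets had one, where 168 and 76 of all probe sets had. Leaving out a wild-type array leaves a single one in that group, so only fold changes are given for those fits. The methods' t-test gave 202 unadjusted, 1 of them a histone. With all 6 arrays, with or without the replicate block, the median log2 fold change was -0.039 over all histones, 0.026 for H2B, -0.08 for H3 and -0.43 for H4, and the assembly and S phase lists stood at -0.26 and -0.19. H2B probe sets above 0, an alternative count chosen after seeing the data like those of wild type replicate 2 and of H4, numbered 7 of 10 with all 6 arrays and 9 after either scaling. The causes were not tested.

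Wild type replicate 2 exceeded the other wild-type arrays by a median of 0.40 in H1 and 0.45 in H2A after quantile normalization. After median centring, which moved all probe sets by 0.51 there, the medians were 0.68 in H1, 1.06 in H2A, 1.36 in H2B, 0.92 in H3 and 1.51 in H4. Leaving out 1 array gave 0.032 to 0.33 in H1, 0.35 to 0.61 in H2A and 0.22 to 0.54 in H3.

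Signs that turned belonged to values that had not passed the test, and those below with no setting named are from all 6 arrays. hil-2 turned to -0.10 (all 6 arrays), -0.047 (replicate block) and -0.015 (centring), and hil-6 to -0.17 and -0.15 (block). hil-7 171921_x_at turned to 0.054 and 0.040 (quantile). his-24 190225_s_at turned to -0.035 and -0.007 (block), his-71 to 0.22, his-72 172863_x_at to -0.039 and his-74 to -0.21. The probe set of his-27, his-17 and his-49 turned to -0.15, that of his-19, his-53, his-21 and his-51 to -0.01 (block), and his-41 to -0.001 (quantile) and -0.014 (centring).

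Leaving out 1 array gave ranges across 0 for hil-2 (-0.22 to 0.23), hil-3 188654_at (-0.13 to 0.36), hil-5 (-0.019 to 0.59), hil-6 (-0.15 to 0.31), hil-7 171921_x_at (-0.017 to 0.028), his-24 190225_s_at (-0.12 to 0.18), his-37 (-0.20 to 0.46), his-41 (-0.054 to 0.057), his-72 (171960_x_at -0.55 to 0.45, 172863_x_at -0.12 to 0.22), his-74 (-0.12 to 0.17), htz-1 189914_s_at (-0.13 to 0.08), 172641_x_at of his-19 (-0.10 to 0.22), 172764_x_at of his-19 (-0.18 to 0.013) and 172774_x_at of his-55 (-0.09 to 0.42). Medians ranged from -0.007 to 0.14 over all histones, -0.042 to 0.19 in H2A, 0.17 to 0.51 in H2B, -0.064 to 0.11 in H3 and -0.22 to 0.13 in H4. Signal over background was not measured here.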
